A study of Mus musculus with 18 samples.

Results

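Matrix glycoproteins, proteoglycans and secreted proteins typical of fibroblasts were followed as a set of 40 genes, listed by name, in 18 RNA libraries from mouse cells labelled HL-1. HL-1 is an immortalised line of atrial cardiomyocytes. Each of the 40 symbols matched 1 of the 29112 genes of the read count table, and 32 of the 40 passed the filter on low counts, as did 15074 genes in all. The 6 groups held 3 libraries each. They were cells transfected in high glucose with a mimic of miR-200a-3p, with the negative control of the mimic, with an inhibitor of miR-200a-3p or with the negative control of the inhibitor, untransfected cells in high glucose, and vehicle cells. A mimic is a synthetic duplex that adds the activity of a microRNA, and an inhibitor blocks it. Every group except vehicle was in high glucose, and the 4 transfected groups were harvested 48 h after transfection. The sources used here give neither the glucose concentration, the time in high glucose nor whether untransfected cells met the transfection reagent. Whether replicate libraries are separate cultures is not stated either. P-values therefore weigh differences between groups only against the spread of these samples within groups, and that spread may be technical.

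The extracellular matrix of the heart is secreted mainly by fibroblasts. Adhesive and matricellular glycoproteins link cells to collagen and tune growth factor signals, and fibrillins, fibulins and latent TGF-beta binding proteins build microfibrils and elastic fibres. Small leucine-rich proteoglycans coat collagen fibrils, and nidogens and netrin-4 belong to the basement membrane, where they bind laminin. Many of these genes are raised in fibroblasts by TGF-beta, whose latent complex is itself stored on microfibrils.

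The sequence of the microRNA and of candidate sites in 3 member transcripts is shown because microRNAs recognise transcripts mainly through the seed. The mature sequence is from RefSeq (GRCm38.p6, chr4:156054911-156054932, minus strand), and the seed, bases 2 to 8, is in capitals.
miR-200a-3p: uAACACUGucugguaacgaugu
A candidate site is a match in an annotated 3′ untranslated region (GENCODE M39, GRCm39) to seed bases 2 to 8, written CAGTGTT in the transcript, to CAGTGTT followed by A, which is called an 8mer, or to AGTGTTA. Only the Ensembl canonical transcript of each gene was searched. The matching letters are in capitals and the stretches run 5′ to 3′ on the transcript strand.
Fn1: tcagtactgctCAGTGTTgtttaagagaat
Vcan: tagtaatttctCAGTGTTAccttttatatt
Ccdc80, the first site: actttttctttCAGTGTTcttccaagatta
Ccdc80, the second site: actcttccccaAGTGTTAcagctcagtaaa
The Fn1 site lay at chr1:71625122-71625128 on the minus strand, in exon 46 of 46, 245 bases past the stop codon. The 8mer of Vcan lay at chr13:89804269-89804276 on the minus strand, in exon 15 of 15. Both Ccdc80 sites lay in exon 9 of 9 on the plus strand, at chr16:44947987-44947993 and chr16:44948696-44948702. Among the 32 members tested, 7 (21.9%) held a site, namely Fn1, Fbln5, Dcn, Vcan, Ogn, Ccdc80 and Pdgfra, against 3555 of 13019 tested genes with an annotated region (27.3%). Vcan alone among them held an 8mer (3.12% of members, 5.26% of those genes). A match describes the letters and does not show that the site is used.

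Each library held 33655916 to 37928790 counted reads. Where a gene had 0 reads, up to 3 reads could have been missed, equal to 0.0791 to 0.0954 CPM by library (counting error only). CPM is the read count divided by that library's own size, which is its reads in genes kept by the filter, scaled between libraries. Levels below are CPM unless FPKM is named. Gene positions are of GRCm39. The cell label was checked against markers. Of 13 cardiomyocyte markers listed, 11 were in the count table and summed to 33.2 to 90.6 CPM by library. Nppa, the atrial natriuretic peptide gene, reached at most 0.0286 CPM and Myh6, the adult cardiac myosin heavy chain, at most 0.197 CPM in any library. These 2 defining markers of an atrial cardiomyocyte were thus at or near 0. Actn2, Ryr2, Tnni3, Tbx5 and Gja5 reached at most 0.636 CPM. Tnnt2, cardiac troponin T, lay at 15.6 to 76.2 CPM, Gata4 at 7.98 to 14.3, Myl4 at 1.02 to 6.27 and Nkx2-5 at 0.143 to 2.3 CPM. The sum of 13 fibroblast markers was 1709 to 1814 CPM in mimic, 1784 to 1796 in mimic control, 2939.8 to 3070.3 in inhibitor, 2984 to 3112 in inhibitor control, 11050 to 12481 in high glucose and 10552 to 11239 CPM in vehicle libraries. Of these 13, Tcf21 and Lum were at or near 0 throughout, and Dcn, Dpt, Lum, Pdgfra and Postn are also members of the set. Col3a1 held most of the sum in high glucose (8591 to 9666 CPM) and vehicle (8412 to 8934 CPM). Ddr2 was instead higher in mimic control (596 to 618 CPM) than in high glucose (427 to 492 CPM). Mimic replicate 2 stood apart, with 14 macrophage markers summing to 1301 CPM, while the other 17 libraries held 36.1 to 71.8 CPM. Most of that sum was Lyz2, lysozyme, at 870.1 CPM there and at 12.7 to 18.6 CPM elsewhere. Cd14 alone among these markers did not stand apart, at 12.9 CPM there and 2.94 to 19 CPM elsewhere. Counts of called genes in comparisons of the mimic group are therefore given with and without that library.

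The set took a smaller share of the reads in every transfected group than in untransfected cells. Together the 40 genes held 0.717% to 0.757% of the reads in mimic, 0.831% to 0.878% in mimic control, 0.849% to 0.9% in inhibitor, 0.859% to 0.916% in inhibitor control, 1.68% to 1.79% in high glucose and 1.78% to 1.84% in vehicle libraries. In bulk RNA, fewer cells of a type and less RNA per cell cannot be told apart. Fn1, which encodes fibronectin, and Sparc, a collagen-binding protein, had the highest levels per transcript length in every group. Fn1 averaged 413 ± 13 FPKM in mimic, 504 ± 15.9 in mimic control, 381 ± 18.8 in inhibitor, 394 ± 17.3 in inhibitor control, 633 ± 33.2 in high glucose and 721 ± 16.3 FPKM in vehicle cells (SD, n = 3 each). Sparc averaged 229.7 ± 8.82 FPKM in mimic, 247 ± 5.64 in mimic control, 349 ± 12.3 in inhibitor, 358 ± 3.84 in inhibitor control, 916 ± 17.7 in high glucose and 919 ± 35.9 FPKM in vehicle cells. Sparc thus ranked above Fn1 in the untransfected groups and below it in the 4 transfected groups. Ccdc80, a secreted matrix protein, was the next most abundant member in high glucose (169.9 ± 6.23 FPKM) and vehicle (161 ± 1.87 FPKM), while Mgp held that place in inhibitor (87.1 ± 3.61 FPKM) and inhibitor control (73.2 ± 3.5 FPKM), Fbn1 in mimic control (37 ± 0.351 FPKM) and Nid1 in mimic cells (34.9 ± 0.715 FPKM). The next in that order lay within 1 SD in high glucose, Nid1 at 161 ± 11.3 FPKM, and in mimic cells, Fbn1 at 34.3 ± 0.735 FPKM.

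**Figure D1:**
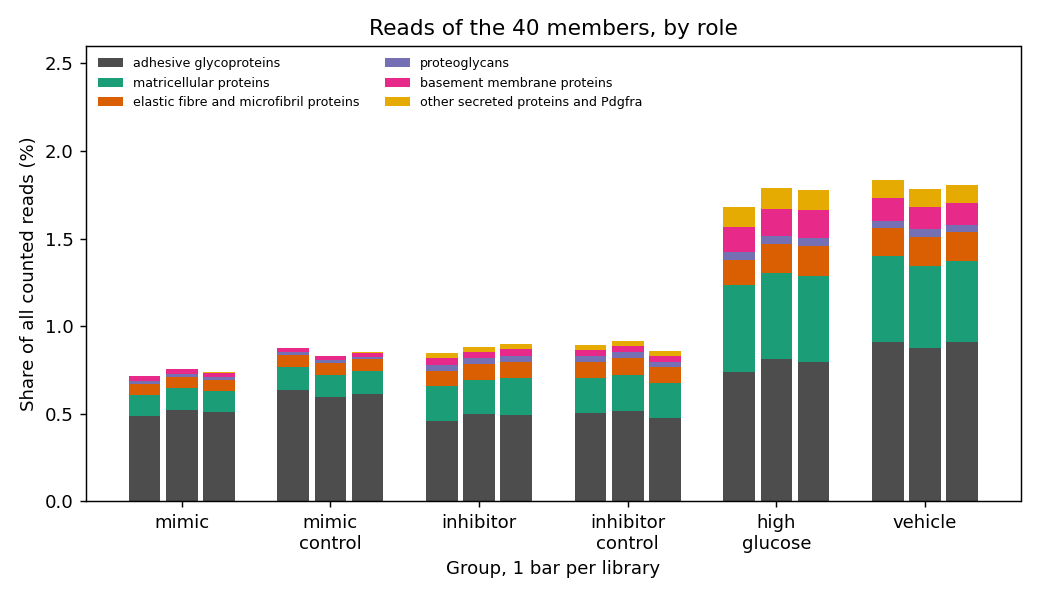
Share of all counted reads (%, from 0) held by the 40 members in each of the 18 libraries, stacked by role, 1 bar per library. The bars of the 4 transfected groups end between 0.717% and 0.916%, and those of the high glucose and vehicle groups between 1.68% and 1.84%.

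The 8 members that did not pass the filter were near the limit of detection in every group. They were Eln (elastin, 69 reads over all 18 libraries), Fbn2 (fibrillin-2, 8 reads), Lum (lumican, 12), Fmod (fibromodulin, 18), Aspn (asporin, 90), Spon1 (spondin 1, 56), Mfap2 (30) and Mfap4 (3), the last 2 microfibril proteins. None exceeded 0.482 CPM in a library. Lum, a common fibroblast marker, had 0 reads in all 12 transfected libraries and 12 reads in the 6 untransfected ones, while the neighbouring Dcn, 42.8 kb away on chromosome 10, was expressed in all groups. Aspn lay 40.3 kb from Ogn on chromosome 13. Members that passed only because 1 group was high had to differ between groups, so the counts below describe the tested members and not the whole set.

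**Figure D2:**
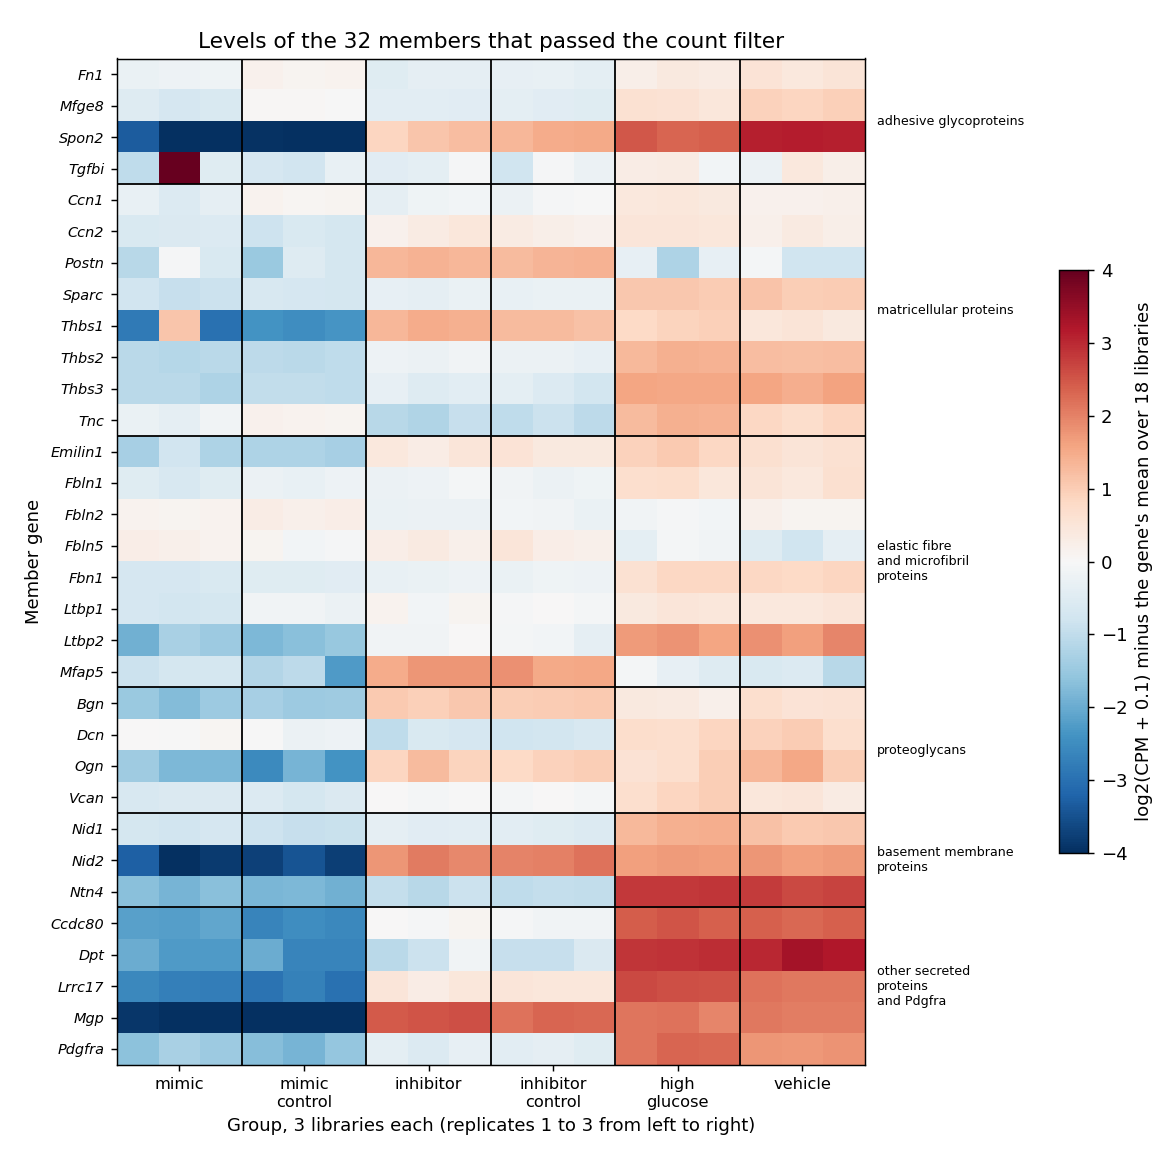
Levels of the 32 tested members (rows, by role) in 18 libraries (columns, mimic at the left to vehicle at the right), as log2(CPM + 0.1) minus the gene's mean over all libraries. Values past the ends of the scale take the end colour, Tgfbi and Thbs1 stand out in mimic replicate 2, and the mimic pair, the inhibitor pair and the untransfected pair form 3 blocks.

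Most members differed between cells given a negative control oligonucleotide and untransfected cells in high glucose. In mimic control cells 1 tested member was higher and 28 were lower than in high glucose, with a median log2 fold change of -1.73 against 0.01 over all genes tested, where 39% were called higher and 39.9% lower. At least 2-fold changes made up 0 members higher and 22 lower, against 17.7% and 21.8% of all genes. In inhibitor control cells 6 members were higher and 22 lower, with a median of -0.84 against 0.04, and 40.1% of all genes were called higher and 39.3% lower. Past 2-fold were 2 members higher and 12 lower, against 19.3% and 16.8% of all genes. Genes count as called when their adjusted p was under 0.05 in edgeR's quasi-likelihood test with Benjamini-Hochberg adjustment over all genes tested. The comparisons share the high glucose libraries. Transfection, reagent, oligonucleotide and any separate handling of these cultures cannot be told apart here. Of 11 fibroblast markers tested, 1 was higher and 8 lower in mimic control, and 2 were higher and 8 lower in inhibitor control. Of 6 smooth muscle markers, 2 were higher and 4 lower in mimic control and 3 were higher and 3 lower in inhibitor control. Together 7 such markers summed to 1875 to 1931 CPM in mimic control and 1422 to 1522 in inhibitor control, against 5327 to 6657 CPM in high glucose. Most of that sum was Des, at 4682 to 5949 CPM in high glucose. Acta2 went the other way, at 33.4 to 38.8 CPM in high glucose, 169.7 to 176 in mimic control and 153 to 163 in inhibitor control. So did Tagln, at 1.76 to 2.5 CPM in high glucose, 5.75 to 6.14 in mimic control and 19.7 to 23.8 in inhibitor control. Of 4 endothelial markers, 3 were higher in mimic control and 2 in inhibitor control, with 0 lower. Together 8 such markers summed to 6.12 to 6.8 CPM in mimic control and 1.27 to 1.58 in inhibitor control, against 0.823 to 1.49 CPM in high glucose. In mimic control that sum was mostly Vwf, at 5.13 to 5.64 CPM, against 0.426 to 0.92 CPM in high glucose. The part of these markers in the differences was not tested.

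**Figure D3:**
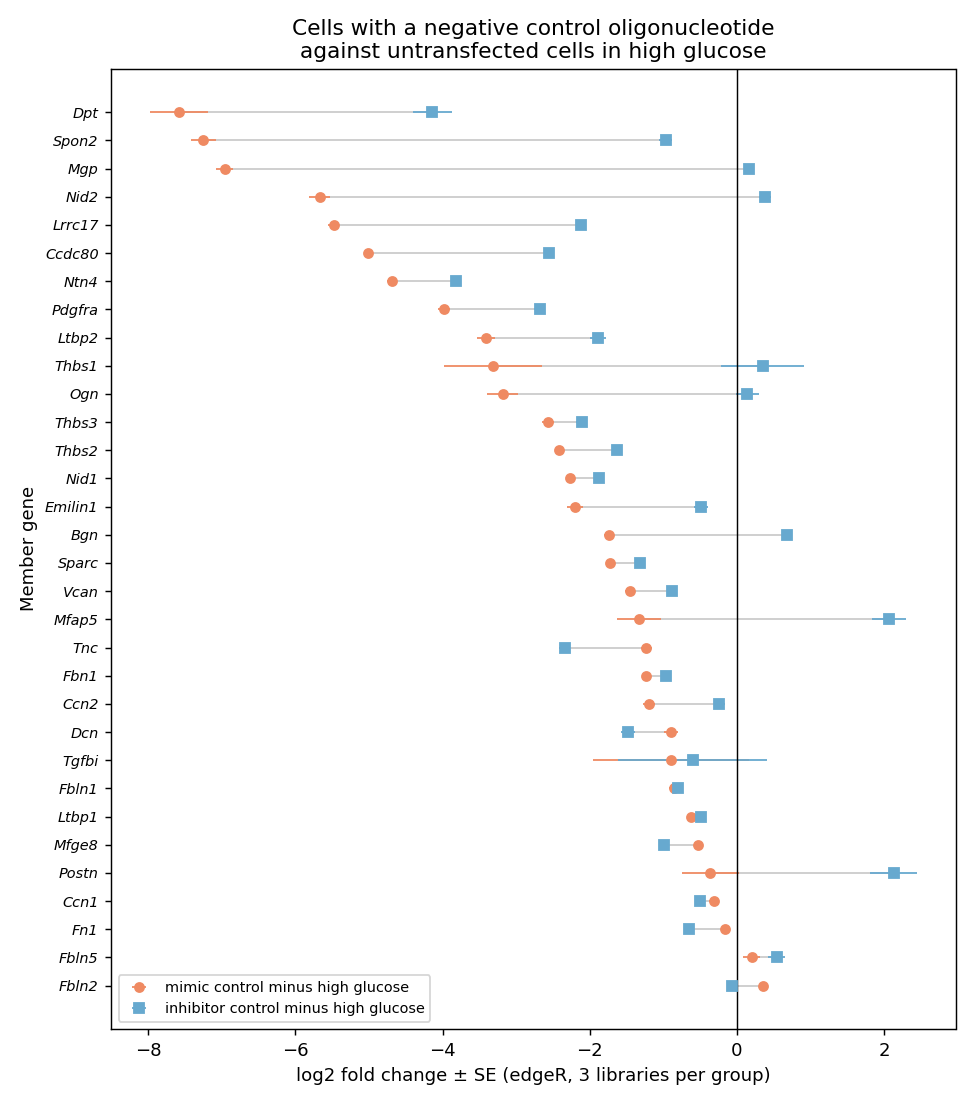
Log2 fold change ± SE of the 32 tested members in mimic control (circles) and inhibitor control (squares) against high glucose, 3 libraries per group, joined by a line for each gene. Circles lie left of 0 except for Fbln5 and Fbln2, and the squares of Mgp, Nid2, Bgn, Mfap5, Postn, Fbln5, Thbs1 and Ogn lie right of 0. The point of Dpt rests on 2 reads in mimic control.

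Adhesive glycoproteins were led by Spon2, spondin 2, a secreted protein that binds integrins and bacterial surfaces (chr5:33353751-33378075, minus strand). It had 0.173, 0.127 and 0.124 CPM in mimic control and 10.5, 11.5 and 11.8 CPM in inhibitor control, against 23.3, 21 and 22 CPM in high glucose. Mimic control libraries were close to the limit of detection, inhibitor control libraries lay between, and no groups overlapped. Relative to high glucose the log2 fold change was -7.25 ± 0.17 in mimic control (SE, 152-fold lower, adjusted p = 1.09e-18) and -0.97 ± 0.0886 in inhibitor control (adjusted p = 3.58e-09). Fn1 and Mfge8, which encodes lactadherin, a bridge between integrins and phosphatidylserine, were called lower in both controls by less than 2-fold. Their log2 fold changes were -0.16 and -0.53 in mimic control and -0.65 and -0.99 in inhibitor control. The call of Fn1 in mimic control (adjusted p = 0.0094) was lost with no filter on low counts (adjusted p = 0.0782) and without high glucose replicate 2 (-0.11) or mimic control replicate 2 (-0.13). Tgfbi, a TGF-beta-induced adhesive protein, had at most 0.723 CPM in these 3 groups and was not called in either control (log2 -0.9 ± 1.06, adjusted p = 0.445 in mimic control and -0.6 ± 1.01, adjusted p = 0.595 in inhibitor control). Its spread came from mimic replicate 2, since without that library the mimic control value was -0.88 ± 0.305 (adjusted p = 0.0106).

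Thrombospondins are matricellular glycoproteins that bind cells, matrix and growth factors, and Thbs1 can activate latent TGF-beta. Thbs1 (chr2:117941974-117957616, plus strand) had 12.1, 11.3 and 12.4 CPM in mimic control and 155, 154 and 144 CPM in inhibitor control, against 112, 118 and 125 CPM in high glucose. All mimic control libraries lay below and all inhibitor control libraries above high glucose. The log2 fold change was -3.31 ± 0.667 in mimic control (9.93-fold lower, adjusted p = 0.000139) and 0.35 ± 0.562 in inhibitor control (adjusted p = 0.579, not called). Mimic replicate 2 widened the shared spread of this gene, and without it the inhibitor control value was 0.35 ± 0.0541 (adjusted p = 1.91e-06, called higher). Thbs2 was at 162, 159.6 and 167 CPM in mimic control and 288, 287 and 269 CPM in inhibitor control, against 832, 901 and 877 CPM in high glucose, so both controls lay below without overlap. Its log2 fold changes were -2.42 ± 0.0462 (adjusted p = 6.46e-20) in mimic control and -1.63 ± 0.0448 (adjusted p = 2.14e-17) in inhibitor control. Thbs3 was scarcer, with 5.35, 5.34 and 5.13 CPM in mimic control, 8.1, 7.21 and 6.36 CPM in inhibitor control and 31.6, 31.3 and 30.8 CPM in high glucose. Both controls again lay below, at log2 -2.57 ± 0.0793 (adjusted p = 7.58e-17) in mimic control and -2.11 ± 0.076 (adjusted p = 1.37e-15) in inhibitor control.

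Among the other matricellular genes, Sparc had 1064, 1046 and 1022 CPM in mimic control and 1369, 1394 and 1385 CPM in inhibitor control, against 3528, 3480 and 3357 CPM in high glucose. No groups overlapped, and the log2 fold changes were -1.73 ± 0.0495 (adjusted p = 2.33e-17) in mimic control and -1.32 ± 0.0489 (adjusted p = 2.09e-15) in inhibitor control. Tnc, tenascin C, which loosens cell adhesion in remodelling tissue, was lowest in inhibitor control, with 101, 99.1 and 98.3 CPM in mimic control, 44.5, 50.4 and 43.4 CPM in inhibitor control and 217, 245 and 237 CPM in high glucose. All libraries of both controls lay below high glucose, at log2 -1.23 ± 0.0715 (adjusted p = 2.3e-12) in mimic control and -2.34 ± 0.0749 (adjusted p = 2.24e-16) in inhibitor control. Postn, periostin, a marker of activated cardiac fibroblasts, was scarce everywhere, at 0.173, 0.445 and 0.371 CPM in mimic control, 1.74, 1.88 and 1.94 CPM in inhibitor control and 0.511, 0.231 and 0.514 CPM in high glucose. Inhibitor control libraries lay above the rest (log2 2.13 ± 0.317, 4.38-fold higher, adjusted p = 4.03e-06), while mimic control overlapped high glucose (-0.36 ± 0.383, adjusted p = 0.398). Ccn2, connective tissue growth factor, had 5.09, 5.88 and 5.53 CPM in mimic control, 11.3, 10.7 and 10.1 CPM in inhibitor control and 12.8, 12.7 and 12.3 CPM in high glucose. It was below high glucose in both, at log2 -1.2 ± 0.0803 (adjusted p = 2.28e-11) in mimic control and -0.24 ± 0.0755 (adjusted p = 0.0071) in inhibitor control, and with upper quartile scaling the second call was lost (adjusted p = 0.0575). Its relative Ccn1, like Ccn2 a target of YAP, was called lower in both at -0.31 in mimic control and -0.5 in inhibitor control.

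Elastic fibre and microfibril genes had median log2 fold changes of -1.04 in mimic control and -0.49 in inhibitor control over 8 tested genes, and Mfap5 differed in sign between the controls. Fbn1, fibrillin-1, the main microfibril protein, had 500.4, 499 and 504 CPM in mimic control and 571, 620 and 607 CPM in inhibitor control, against 1059, 1224 and 1243 CPM in high glucose. It lay below high glucose in both, at log2 -1.23 ± 0.0543 (adjusted p = 2.35e-14) in mimic control and -0.97 ± 0.0539 (adjusted p = 1.39e-12) in inhibitor control. Ltbp2, a latent TGF-beta binding protein of microfibrils, had 2.27, 2.48 and 2.81 CPM in mimic control, 7.77, 7.55 and 6.41 CPM in inhibitor control and 27, 28.8 and 24.7 CPM in high glucose. The groups did not overlap, and the log2 fold changes were -3.41 ± 0.127 (adjusted p = 1.44e-15) in mimic control and -1.89 ± 0.11 (adjusted p = 3.11e-12) in inhibitor control. Emilin1, an elastin-associated glycoprotein, had 16.6, 16.9 and 15.8 CPM in mimic control, 57.8, 51.4 and 52 CPM in inhibitor control and 75.5, 81.1 and 70.4 CPM in high glucose. Mimic control lay far below high glucose (log2 -2.2 ± 0.105, adjusted p = 8.12e-14) and inhibitor control slightly below it (-0.49 ± 0.0956, adjusted p = 9.51e-05). Mfap5, a microfibril glycoprotein, was scarce, at 0.374, 0.413 and 0.124 CPM in mimic control, 3.71, 2.97 and 3.03 CPM in inhibitor control and 0.908, 0.752 and 0.65 CPM in high glucose. It was lower in mimic control (log2 -1.33 ± 0.294, adjusted p = 0.000369) and 4.2-fold higher in inhibitor control (2.07 ± 0.231, adjusted p = 7.53e-08). The remaining 4 tested genes of this role changed by less than 2-fold. Fbln1 (-0.85 in mimic control and -0.8 in inhibitor control) and Ltbp1 (-0.62 and -0.49) were called lower in both, Fbln2 was higher in mimic control (log2 0.35) and not called in inhibitor control, and Fbln5, needed for elastic fibre assembly, was higher in inhibitor control (0.54) and not called in mimic control.

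Proteoglycans split as well. Bgn, biglycan, had 20.6, 18.9 and 19.3 CPM in mimic control and 103, 104 and 107 CPM in inhibitor control, against 68.8, 66.8 and 60.1 CPM in high glucose. Mimic control lay below high glucose (log2 -1.74 ± 0.0657, adjusted p = 1.91e-15) and inhibitor control above it (0.68 ± 0.0601, adjusted p = 2.17e-09), with no overlap. Ogn, osteoglycin, had 0.518, 0.89 and 0.587 CPM in mimic control, 6.11, 6.7 and 6.96 CPM in inhibitor control and 5.31, 5.64 and 7.04 CPM in high glucose. Mimic control was 9.03-fold lower (log2 -3.18 ± 0.21, adjusted p = 1.85e-11), while inhibitor control overlapped high glucose (0.14 ± 0.158, adjusted p = 0.437). Dcn, decorin, which like biglycan binds collagen and TGF-beta, had 24.3, 20.8 and 21.4 CPM in mimic control, 13.9, 14.8 and 15.7 CPM in inhibitor control and 40.3, 38.8 and 44.8 CPM in high glucose. Here inhibitor control was the lowest group (log2 -1.48 ± 0.0993, adjusted p = 2.83e-11), and mimic control was also below high glucose (-0.9 ± 0.0966, adjusted p = 3.8e-08). Vcan, versican, a large chondroitin sulfate proteoglycan, had 129.7, 117 and 127 CPM in mimic control, 181, 192 and 181 CPM in inhibitor control and 303, 344 and 375 CPM in high glucose. Both controls lay below, at log2 -1.45 ± 0.0661 (adjusted p = 3.98e-14) in mimic control and -0.88 ± 0.0649 (adjusted p = 1.23e-10) in inhibitor control.

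The nidogens, which link laminin to type IV collagen, differed from each other in sign in inhibitor control. Nid2 (chr14:19801298-19861855, plus strand) had 0.316, 0.413 and 0.309 CPM in mimic control and 21.8, 22.3 and 25 CPM in inhibitor control, against 17.2, 18.2 and 17.8 CPM in high glucose. Mimic control was 50.9-fold lower (log2 -5.67 ± 0.145, adjusted p = 3.95e-18) and inhibitor control was higher without overlap (0.38 ± 0.083, adjusted p = 0.000357). Nid1 had 237, 224 and 228 CPM in mimic control, 313, 302 and 288 CPM in inhibitor control and 1027, 1139 and 1166 CPM in high glucose. It lay below high glucose in both, at log2 -2.27 ± 0.0543 (adjusted p = 1.46e-18) in mimic control and -1.88 ± 0.0535 (adjusted p = 3.44e-17) in inhibitor control. Ntn4, netrin-4, had 13.3, 13.5 and 12.3 CPM in mimic control, 23.2, 24.5 and 23.8 CPM in inhibitor control and 337, 334 and 341 CPM in high glucose. Both controls were far below, 25.8-fold in mimic control (log2 -4.69 ± 0.0658, adjusted p = 1.95e-21) and 14.2-fold in inhibitor control (-3.82 ± 0.0617, adjusted p = 3.11e-20).

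The other secreted proteins and the receptor Pdgfra held the lowest median of the roles in both controls, -5.48 in mimic control and -2.55 in inhibitor control over 5 genes. Mgp, matrix Gla protein, an inhibitor of calcification (chr6:136849433-136852821, minus strand), had 0.662, 0.54 and 0.68 CPM in mimic control and 83.6, 91.6 and 90.2 CPM in inhibitor control, against 82, 82.2 and 71.5 CPM in high glucose. Mimic control was 124-fold lower (log2 -6.96 ± 0.111, adjusted p = 7.35e-21). Inhibitor control lay just above high glucose (0.17 ± 0.0625, adjusted p = 0.0171), a call that was lost with limma on FPKM and without high glucose replicate 3 (0.1), inhibitor control replicate 2 (0.14) or inhibitor control replicate 3 (0.15). Ccdc80 (chr16:44913765-44951519, plus strand) had 21.3, 24 and 22.5 CPM in mimic control, 129, 122 and 121 CPM in inhibitor control and 709, 768 and 701 CPM in high glucose. No groups overlapped and mimic control was lowest, at log2 -5.01 ± 0.063 (adjusted p = 1.13e-21) in mimic control and -2.55 ± 0.0547 (adjusted p = 6.44e-19) in inhibitor control. Lrrc17, a secreted leucine-rich repeat protein, had 4.86, 5.82 and 4.79 CPM in mimic control, 53.5, 53 and 52.2 CPM in inhibitor control and 238, 229.9 and 223 CPM in high glucose. The same order held, at log2 -5.48 ± 0.0714 (adjusted p = 1.34e-21) in mimic control and -2.12 ± 0.0561 (adjusted p = 1.26e-17) in inhibitor control. Pdgfra, a growth factor receptor used as a fibroblast marker, had 4.83, 4.32 and 5.32 CPM in mimic control, 11.7, 12.4 and 11.4 CPM in inhibitor control and 70.4, 79.4 and 78.2 CPM in high glucose. No groups overlapped, and the log2 fold changes were -3.98 ± 0.0858 (adjusted p = 3.24e-19) in mimic control and -2.68 ± 0.0768 (adjusted p = 3.89e-17) in inhibitor control. Dpt, dermatopontin, a decorin-binding protein, had 0.0575, 0 and 0 CPM in mimic control, 0.225, 0.224 and 0.318 CPM in inhibitor control and 4.43, 4.51 and 4.71 CPM in high glucose. These were 2 reads in the mimic control group and 27 in the inhibitor control group, against 486 in high glucose. High glucose was higher than mimic control by a ratio of 224 (exact 95% interval 61.8 to 1857, counting error only), and inhibitor control was lower than high glucose at log2 -4.14 ± 0.266. Dpt passed the filter on low counts through its reads in untransfected libraries. Some difference from the transfected groups was thus built in, and no p-value is given for it.

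The negative controls also differed from each other. In inhibitor control cells 24 members were higher and 6 lower than in mimic control cells, with a median log2 fold change of 0.83 against 0.04 over all genes, where 38.5% were called higher and 35.7% lower. Past 2-fold were 14 members higher and 1 lower, against 17.6% and 8.23% of all genes. The 14 were Mgp (log2 7.13 ± 0.111, adjusted p = 1.14e-19), Spon2 (6.28 ± 0.182, adjusted p = 2.91e-16), Nid2 (6.05 ± 0.142, adjusted p = 1.78e-17) and, between 1.29 and 3.66, Thbs1, Dpt, Mfap5, Lrrc17, Ogn, Postn, Ccdc80, Bgn, Emilin1, Ltbp2 and Pdgfra. In each of these 14 every inhibitor control library lay above every mimic control library. Dpt rested on 27 reads against 2, a ratio of 12.6 (exact 95% interval 3.16 to 109). Tnc was the member lower by more than 2-fold (log2 -1.11 ± 0.0738, adjusted p = 3.98e-11), and Dcn (-0.58), Fn1 (-0.49), Mfge8 (-0.46), Fbln2 (-0.42) and Ccn1 (-0.2) were lower by less. The call of Ccn1 was lost with upper quartile scaling (-0.09, adjusted p = 0.191), with limma on FPKM (-0.07) and without inhibitor control replicate 1 (-0.15). The call of Ltbp1 (0.13, adjusted p = 0.0351) was lost with no filter on low counts (adjusted p = 0.18) and without inhibitor control replicate 1 (0.13), inhibitor control replicate 2 (0.08), mimic replicate 2 (0.11), mimic control replicate 1 (0.13), mimic control replicate 2 (0.12) or mimic control replicate 3 (0.09), and that of Fbln5 (0.34, adjusted p = 0.0105) without inhibitor control replicate 1 (0.24) or mimic control replicate 2 (0.26). With upper quartile scaling the median of all genes itself moved to 0.15 in this comparison and to 0.11 between inhibitor control and high glucose.

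**Figure D4:**
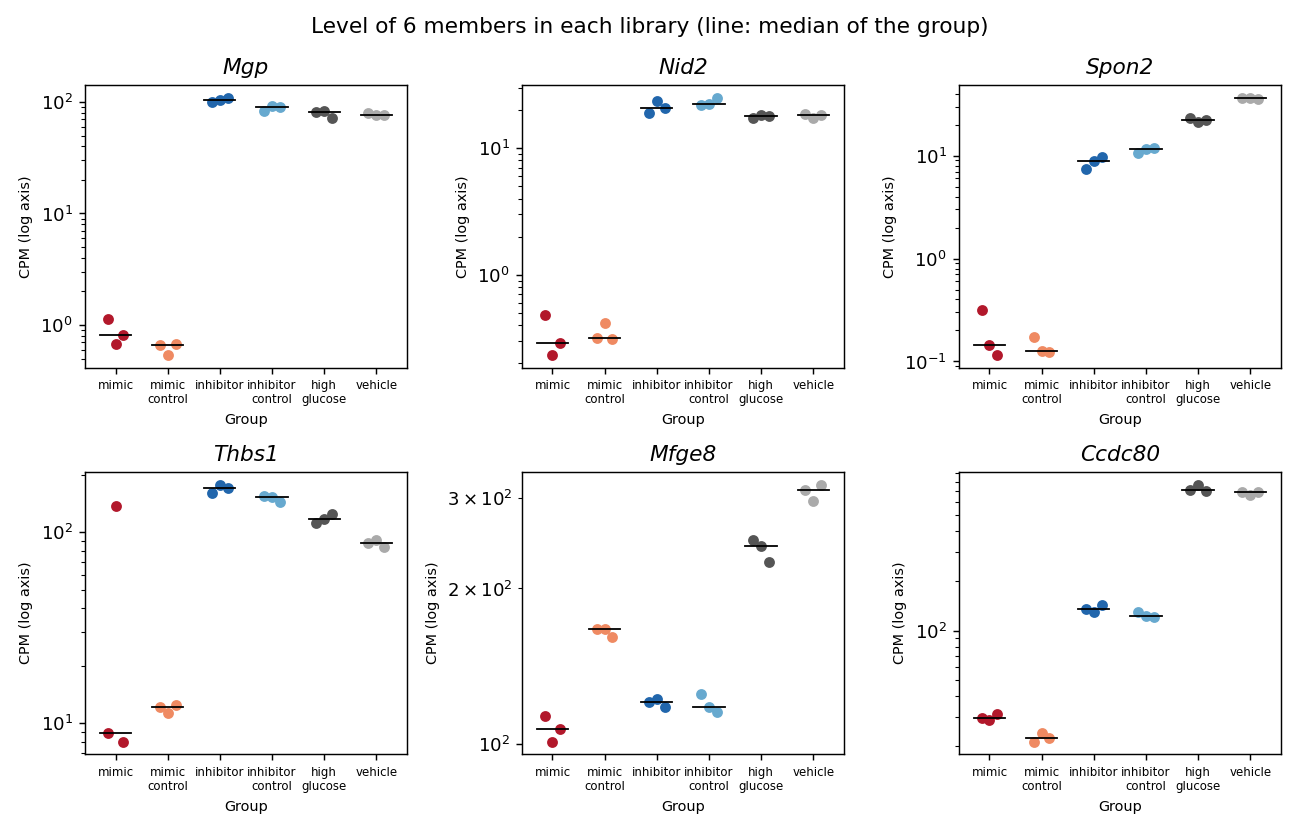
CPM on a log axis in each library for Mgp, Nid2, Spon2, Thbs1, Mfge8 and Ccdc80, with groups from mimic at the left to vehicle at the right and a line at the median of each group. Mgp, Nid2 and Spon2 are low in both mimic groups alone, Thbs1 is at 138 CPM in 1 mimic library against 8.01 and 8.89 CPM in the other 2, and Mfge8 is lower in mimic than in mimic control.

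The mimic of miR-200a-3p was compared with its negative control to ask what the added microRNA did in high glucose. Calls fell on 12 of the 32 tested members, 4 of them higher and 8 lower, with a median log2 fold change of 0.13 against 0 over all genes, where 15.8% were called higher and 18% lower. Without mimic replicate 2 the counts were 2 higher and 8 lower of 33 tested, with a median of -0.02, against 11.3% higher and 14.9% lower of 15308 genes. The share of calls that were higher over all genes was 46.7%. Limma on FPKM gave 61.3% at a pseudocount of 1 and 63.5% at 0.1, upper quartile scaling gave 55.1%, DESeq2 gave 38.9%, and its size factors in edgeR gave 41.1%. The lower members were adhesive, matricellular or microfibril genes, and none of the 4 tested proteoglycans was called.

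Mfge8 (chr7:78783515-78798825, minus strand) fell most, with 113, 101 and 107 CPM in mimic against 167, 167 and 161 CPM in mimic control. The groups did not overlap, and the log2 fold change was -0.62 ± 0.0503 (1.54-fold lower, adjusted p = 4.03e-07). Fn1 (chr1:71624673-71692419, minus strand) had 4977, 5145 and 5264 CPM in mimic against 6755, 6417 and 6570.4 CPM in mimic control, again with every mimic library below (log2 -0.36 ± 0.0534, adjusted p = 6.75e-05). Ccn1 was at 59.1, 50 and 56.8 CPM in mimic against 79.3, 76.7 and 78.3 CPM in mimic control, and Tnc at 75.4, 71.3 and 82.5 CPM against 101, 99.1 and 98.3 CPM. Both lay below their control in every library, at log2 -0.5 ± 0.0648 (adjusted p = 2.14e-05) for Ccn1 and -0.38 ± 0.0721 (adjusted p = 0.000575) for Tnc. Ltbp1, which anchors latent TGF-beta to fibronectin and microfibrils (chr17:75312519-75699507, plus strand), had 77.4, 74.1 and 76.3 CPM in mimic against 112, 112 and 107 CPM in mimic control. Its log2 fold change was -0.54 ± 0.056 (adjusted p = 2.64e-06), the second in size of the 8. Fbln1, fibulin-1, had 10.3, 9.21 and 10.3 CPM in mimic against 12.4, 11.9 and 12.5 CPM in mimic control (log2 -0.31 ± 0.0761, adjusted p = 0.00472). Fbn1 (-0.18, adjusted p = 0.0136) and Sparc (-0.18, adjusted p = 0.00902) fell least, both without overlap, and both calls were lost with limma on FPKM. The call of Sparc was also lost without mimic replicate 2 (-0.15, adjusted p = 0.0534). The other 7 of the 8 were also called lower without that library, at -0.59 to -0.18.

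Among the genes that rose, Ccdc80 had 29.5, 28.7 and 31.3 CPM in mimic against 21.3, 24 and 22.5 CPM in mimic control. All mimic libraries lay above, and the log2 fold change was 0.4 ± 0.0601 (adjusted p = 7.27e-05), or 0.42 ± 0.0698 without mimic replicate 2. Nid1 had 259, 247 and 267 CPM in mimic against 237, 224 and 228 CPM in mimic control, at log2 0.17 ± 0.0524 (adjusted p = 0.0195). The groups did not overlap, but the call of Nid1 was lost with no filter on low counts (0.16, adjusted p = 0.0565) and without mimic replicate 1 (0.15), mimic replicate 3 (0.13), mimic control replicate 2 (0.14) or mimic control replicate 3 (0.15). Several scarce members had higher means in mimic and missed the threshold, among them Mfap5 (log2 0.79 ± 0.309, adjusted p = 0.0549) and Ogn (0.65 ± 0.257, adjusted p = 0.0581). Without mimic control replicate 2 both passed, Mfap5 at 1.05 (adjusted p = 0.0322) and Ogn at 0.9 (adjusted p = 0.0242), as did Lrrc17 at 0.27 (adjusted p = 0.0286) and Fbln2 at -0.15 (adjusted p = 0.0426). With all libraries Mfap5 and Ogn passed with upper quartile scaling (adjusted p = 0.0475 and 0.0474) and with limma on log2(FPKM + 0.1) (adjusted p = 0.0277 and 0.0256). Limma at either pseudocount also called Mgp, Ntn4 and Lrrc17 higher, and DESeq2 called Fbln2 lower (-0.13, adjusted p = 0.0157). Bgn passed without mimic replicate 3 (-0.21, adjusted p = 0.047), and Pdgfra without mimic replicate 1 (0.31, adjusted p = 0.0282) or mimic control replicate 3 (0.3, adjusted p = 0.0453).

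The other 2 genes called higher, Thbs1 and Tgfbi, were high in 1 library. Thbs1 had 8.89, 138 and 8.01 CPM in mimic against 12.1, 11.3 and 12.4 CPM in mimic control. Mimic replicate 2 was far above the other 2 mimic libraries, and those 2 lay below every mimic control library. With all libraries the log2 fold change was 2.11 ± 0.667 (adjusted p = 0.02), and without mimic replicate 2 it was -0.51 ± 0.0871 (adjusted p = 0.000151), called lower. Fitted on the 2 groups alone and without that library, Thbs1 was at -0.49 (adjusted p = 0.000302), and the call with all libraries was lost without any 1 of the 3 mimic control libraries (adjusted p = 0.0567 to 0.0613). It was also lost with all libraries of only the 2 groups in the fit (2.14, adjusted p = 0.124) and with limma on log2(FPKM + 1) (0.84, adjusted p = 0.294). Tgfbi had 0.228, 12.2 and 0.376 CPM in mimic against 0.316, 0.286 and 0.433 CPM in mimic control. Here too mimic replicate 2 alone was high, and the log2 fold change was 3.62 ± 0.948 (adjusted p = 0.00656) with it and -0.2 ± 0.403 (adjusted p = 0.773) without it. With only the 2 groups in the fit Tgfbi missed the threshold as well (adjusted p = 0.0694). The macrophage markers moved with these genes, since 10 of 12 tested were called higher in mimic with replicate 2 and 0 higher and 2 lower without it. Emilin1 had 15.7, 23.4 and 16.7 CPM in mimic against 16.6, 16.9 and 15.8 CPM in mimic control, with replicate 2 above the rest, and was not called (log2 0.18 ± 0.11, adjusted p = 0.227).

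**Figure D5:**
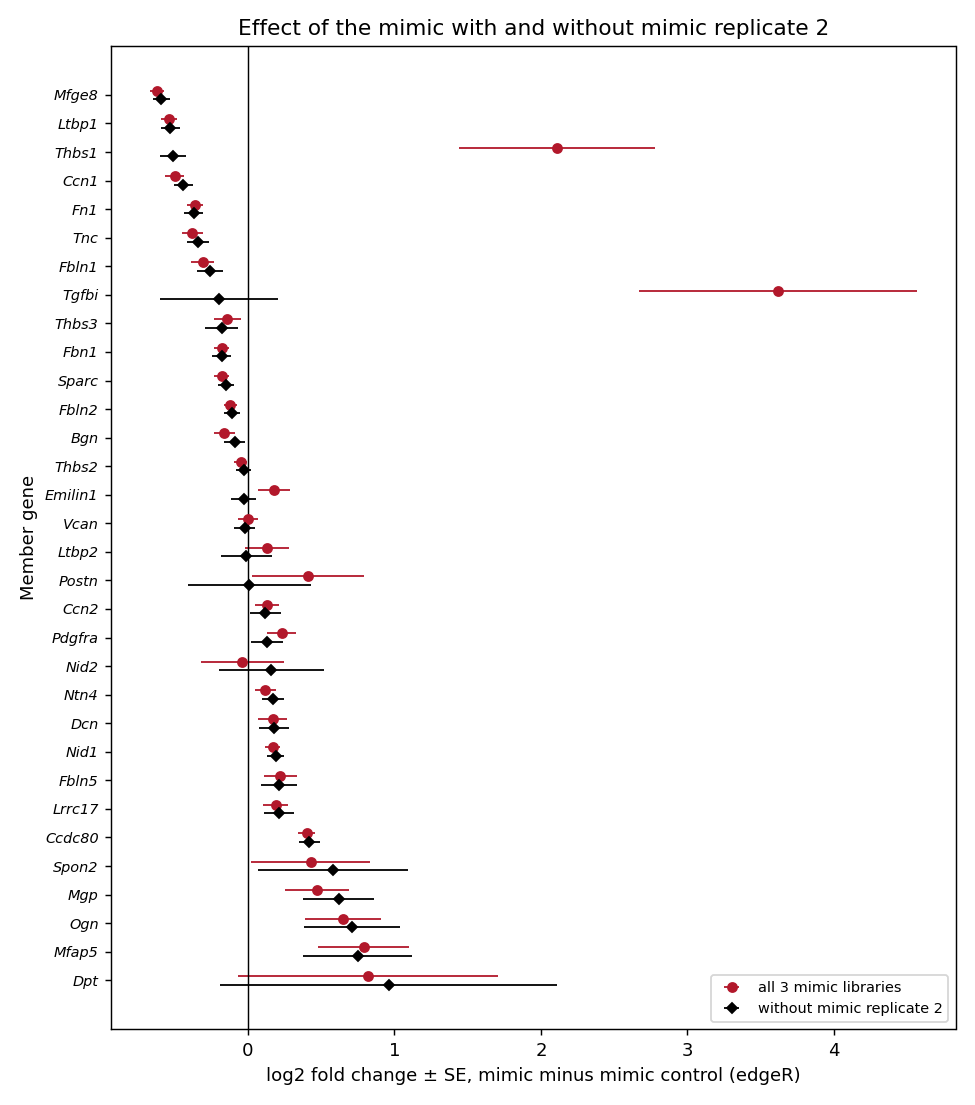
Log2 fold change ± SE of the 32 members, mimic minus mimic control, with all 3 mimic libraries (circles) and without mimic replicate 2 (diamonds), ordered by the diamonds. Thbs1 moves between 2.11 and -0.51 and Tgfbi between 3.62 and -0.20, while Mfge8, Ltbp1, Ccn1, Fn1 and Tnc lie below 0 both ways.

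Members with a candidate site did not move one way. Of the 7 with a site, Fn1 fell (log2 -0.36), Ccdc80 rose (0.4) with 2 sites, and the rest were not called. Vcan, with the 8mer, had 121, 127 and 127 CPM in mimic against 129.7, 117 and 127 CPM in mimic control, which overlapped (log2 0 ± 0.0657, adjusted p = 0.97). Pdgfra, with 3 sites, was at 0.23 ± 0.0984 (adjusted p = 0.0741), and Dcn, Ogn and Fbln5 lay between 0.17 and 0.65. Mfge8, Ltbp1, Ccn1, Tnc, Fbln1, Fbn1 and Sparc, the other 7 genes that fell, held no match in the annotated region of the canonical transcript. Other transcripts of these genes were not searched.

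The inhibitor of miR-200a-3p left no member called against its negative control. The counts were 0 higher and 0 lower of 32, with a median log2 fold change of 0.01 against 0, and 0% of all genes were called higher and 0% lower by edgeR, as by DESeq2 and limma. At an unadjusted p under 0.05 edgeR gave 447 genes (2.97%), DESeq2 281 (1.88%) and limma on log2(FPKM + 1) 674 (4.47%). All 3 shares lay below what that threshold gives on average where nothing differs. In each tool, run on the same libraries, the members among them were Ccdc80, Mgp and Spon2, 3 of 32. Mgp had 100.4, 105 and 109 CPM in inhibitor against 83.6, 91.6 and 90.2 CPM in inhibitor control, at log2 0.25 ± 0.0621 (adjusted p = 1). Spon2 had 7.44, 8.97 and 9.68 CPM in inhibitor against 10.5, 11.5 and 11.8 CPM in inhibitor control, at -0.37 ± 0.0932 (adjusted p = 1). Ccdc80 had 135, 130.5 and 144 CPM in inhibitor against 129, 122 and 121 CPM in inhibitor control, at 0.14 ± 0.0527 (adjusted p = 1). In these 3 the groups did not overlap, with inhibitor above for Mgp and Ccdc80 and below for Spon2, yet none passed the adjustment. Without the filter on low counts Mgp (adjusted p = 0.0235) and Spon2 (adjusted p = 0.0341) passed. That edgeR fit also gave Thbs1 in mimic an adjusted p of 4.87e-204, against 0.02 with the filter, though Thbs1 was high in 1 mimic library. A small p-value in that fit therefore did not require the libraries of a group to agree. Thbs1 was also above its control in every library, at 161, 178 and 171 CPM in inhibitor against 155, 154 and 144 CPM in inhibitor control (log2 0.17 ± 0.559), and was at 0.17 ± 0.0536 without mimic replicate 2 (adjusted p = 1).

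Mimic and inhibitor effects, each against its own control, differed for 5 members, 1 higher and 4 lower as mimic minus inhibitor, against 4.63% and 8.59% of all genes, with a median of 0.09 against 0.01. Without mimic replicate 2 the counts were 1 higher and 5 lower of 33 tested, against 3.66% and 6.67% of 15308 genes, with a median of -0.03 against 0. Mfge8 (log2 -0.63 ± 0.071, adjusted p = 0.000102) and Ltbp1 (-0.63 ± 0.0785, adjusted p = 0.000144) differed most, followed by Ccn1 (-0.38 ± 0.0913, adjusted p = 0.0114) and Fn1 (-0.31 ± 0.0754, adjusted p = 0.012). With limma on log2(FPKM + 0.1) Fn1 missed the threshold (-0.24, adjusted p = 0.0534). Each of the 4 fell with the mimic and was near 0 with the inhibitor, between -0.12 for Ccn1 and 0.09 for Ltbp1. Ccdc80 was the member with the more positive mimic effect (0.26 ± 0.08, adjusted p = 0.0349), a call lost with DESeq2 size factors (adjusted p = 0.0513), with no filter on low counts (0.25, adjusted p = 0.0578) and, at 0.22 to 0.28, without inhibitor replicates 1 or 2, any inhibitor control replicate, mimic replicates 1 or 3 or mimic control replicates 1 or 3. Thbs1 was at 1.94 ± 0.87 (adjusted p = 0.146) with all libraries and at -0.68 ± 0.102 (adjusted p = 0.000284) without mimic replicate 2, and was called higher without mimic replicate 1 (2.42) or 3 (2.43). Tgfbi passed likewise without mimic replicate 1 (4.1) or 3 (4.09). Tnc (-0.29 ± 0.104, adjusted p = 0.0697) passed without inhibitor replicate 2 (-0.35), inhibitor control replicate 2 (-0.36) or mimic replicate 3 (-0.36), and Fbln1 (-0.32 ± 0.106, adjusted p = 0.0535) without mimic replicate 1 (-0.36). With all libraries Tnc passed with DESeq2 (adjusted p = 0.0203) and with no filter on low counts (adjusted p = 0.0063). Fbln1 passed with DESeq2 size factors (adjusted p = 0.0439), with DESeq2 (adjusted p = 0.0451) and with only the groups compared in the fit (adjusted p = 0.0195). The share of calls that were higher over all genes was 35%. It was 27.7% with DESeq2 size factors, 29.7% with DESeq2, 47.2% with upper quartile scaling, 49.5% with limma on log2(FPKM + 1) and 53.1% on log2(FPKM + 0.1).

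High glucose was compared with vehicle in untransfected cells to ask what glucose did alone. Of 32 tested members 9 were higher and 6 lower, against 12% and 12.2% of all genes, and the median was 0.01 against 0. No member changed by 2-fold. Spon2 fell most, with 23.3, 21 and 22 CPM in high glucose against 36, 36.5 and 35.8 CPM in vehicle. Every high glucose library lay below (log2 -0.71 ± 0.0839, 1.63-fold lower, adjusted p = 3.59e-06). Mfge8 had 248, 242 and 225 CPM in high glucose against 311, 295 and 318 CPM in vehicle, also without overlap (log2 -0.37 ± 0.0492, adjusted p = 1.39e-05). Fn1 had 6919.6, 7777 and 7384 CPM in high glucose against 8602, 7941 and 8487 CPM in vehicle (log2 -0.18 ± 0.0533, adjusted p = 0.0173). The groups of Fn1 did not overlap, yet its call was lost with only the 2 groups in the fit (adjusted p = 0.121), with no filter on low counts (adjusted p = 0.0887) and without vehicle replicate 1 (-0.15), vehicle replicate 3 (-0.17) or high glucose replicate 1 (-0.13). The other lower members were Bgn (log2 -0.28), Fbln2 (-0.23) and Ogn (-0.55, adjusted p = 0.0131), of which Ogn overlapped vehicle and was lost without vehicle replicate 2 (-0.4), high glucose replicate 1 (-0.47) or high glucose replicate 2 (-0.51).

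Tnc rose most in high glucose, with 217, 245 and 237 CPM in high glucose against 162, 147 and 164 CPM in vehicle. The groups did not overlap, at log2 0.56 ± 0.0701 (1.48-fold higher, adjusted p = 6.14e-06). Pdgfra had 70.4, 79.4 and 78.2 CPM in high glucose against 54.3, 53.4 and 55.2 CPM in vehicle (log2 0.49 ± 0.0689, adjusted p = 2.83e-05), and Lrrc17 had 238, 229.9 and 223 CPM against 172, 165 and 167 CPM (0.46 ± 0.053, adjusted p = 2.68e-06). Every high glucose library of both genes lay above vehicle. Vcan was at 303, 344 and 375 CPM in high glucose against 258, 267 and 236 CPM in vehicle (log2 0.43 ± 0.0643, adjusted p = 5.9e-05), and Nid1 at 1027, 1139 and 1166 CPM against 944, 878 and 889.6 CPM (0.3 ± 0.0516, adjusted p = 0.000257). Emilin1 (0.34), Fbln5 (0.35), Ccn1 (0.23) and Thbs2 (0.14) were also called higher. Of these, Emilin1 was lost without high glucose replicate 2 (0.29), Fbln5 without vehicle replicate 1 (0.37), vehicle replicate 2 (0.24), high glucose replicate 2 (0.29) or high glucose replicate 3 (0.32) and Thbs2 without vehicle replicate 2 (0.13), vehicle replicate 3 (0.14), high glucose replicate 2 (0.12) or high glucose replicate 3 (0.14). With only the 2 groups in the fit Fbln5 (adjusted p = 0.0675) and Thbs2 (adjusted p = 0.113) were lost too, as was Thbs2 with no filter on low counts (adjusted p = 0.123). Ccn2 (log2 0.2 ± 0.0752, adjusted p = 0.0563) missed the threshold and passed without vehicle replicate 2 (0.26). Thbs1 had 112, 118 and 125 CPM in high glucose against 88.3, 91.6 and 83.8 CPM in vehicle, without overlap. Its log2 fold change of 0.43 ± 0.568 was not called with mimic replicate 2 in the fit (adjusted p = 0.647) and was called higher without that library (0.43 ± 0.0547, adjusted p = 9.66e-07) and with only the 2 groups in the fit (adjusted p = 0.000152). Of the fibroblast markers 2 of 11 tested were called higher in high glucose and 0 lower.

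Genes that work with the members were followed as 6 lists. In mimic their counts stand beside 15.8% of all genes called higher and 18% lower, or 11.3% and 14.9% without mimic replicate 2. Basement membrane partners, which include laminin chains and type IV collagen, had 0 of 17 tested genes higher and 12 lower in mimic than in mimic control, at a median log2 fold change of -0.36 against 0 over all genes. Lama3 and Lamb3, laminin chains of epithelial basement membranes, fell by 0.81 ± 0.0785 (adjusted p = 1.22e-06) and 0.8 ± 0.0734 (adjusted p = 7.77e-07), and Tinagl1, a laminin-binding protein, by 0.86 ± 0.12 (adjusted p = 4.2e-05). Without mimic replicate 2 the counts were also 0 higher and 12 lower, with a median of -0.34. For the mimic effect minus the inhibitor effect 0 were higher and 11 lower, at a median of -0.33, and 0 and 11 without that library, against 4.63% and 8.59% of all genes with it and 3.66% and 6.67% without it. Of the basement membrane members, Nid1 was called higher, and Nid2 and Ntn4 were not called.

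Targets of YAP/TAZ and SRF other than members, among them genes of smooth muscle actin and myosin, had 0 of 19 higher and 10 lower in mimic, at a median of -0.24, and 0 and 10 without mimic replicate 2, against 15.8% and 18% of all genes with that library and 11.3% and 14.9% without it. Acta2, smooth muscle actin, fell by 0.44 ± 0.0542 (adjusted p = 1.32e-05), Actg2 by 0.49 ± 0.13 (adjusted p = 0.00655) and Myl9, a myosin light chain, by 0.43 ± 0.141 (adjusted p = 0.0232). Of 6 smooth muscle markers tested, which include Acta2, 0 were higher and 3 lower in mimic, and 0 and 2 without replicate 2, and their part was not tested. Ccn1 fell and Ccn2 was not called. Matrix integrins and other receptors had 6 of 21 higher and 5 lower in mimic, and 4 and 5 without replicate 2. Cd36 and Itga4 led the higher ones, at log2 3.74 ± 0.953 (adjusted p = 0.00554) and 3.37 ± 0.893 (adjusted p = 0.00708), and were at -0.4 (adjusted p = 0.161) and -0.03 (adjusted p = 0.967) without that library. Both are also expressed by macrophages. TGF-beta ligands, receptors, SMADs and direct targets had 4 of 21 higher and 6 lower in mimic, and 3 and 7 without replicate 2. Elastic fibre partners had 2 of 14 higher and 4 lower, and 0 and 4 without replicate 2, where Adamts10, a protease of microfibrils, was at 0.09 (adjusted p = 0.736) against 0.67 ± 0.252 (adjusted p = 0.0451) with it. Other matrix glycoproteins and proteoglycans had 2 of 19 higher and 3 lower both with and without that library. Several of these shares lay near those of all genes. In the inhibitor comparison every list had 0 called.

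Between mimic control and high glucose most genes of 5 lists were lower, beside 39% of all genes called higher and 39.9% lower. Other matrix glycoproteins and proteoglycans had 2 of 19 higher and 15 lower at a median of -2.29, elastic fibre partners 2 of 14 and 11 at -1.57, TGF-beta genes 6 of 21 and 11 at -1.45, integrins and receptors 1 of 21 and 16 at -1.14, and basement membrane partners 3 of 17 and 14 at -0.65. YAP/TAZ and SRF targets were the exception, with 11 of 19 higher and 7 lower at 0.47. Among the largest were Adamtsl4, a microfibril-binding protein (log2 -4.18 ± 0.0844, adjusted p = 1.32e-19), Edil3, a lactadherin relative (-5.05 ± 0.305, adjusted p = 4.09e-12), and the ligand Tgfb3 (-4.28 ± 0.0602, adjusted p = 1.95e-21). Between inhibitor control and high glucose, where 40.1% of all genes were called higher and 39.3% lower, other glycoproteins and proteoglycans had 4 of 19 higher and 13 lower at -0.88, elastic fibre partners 3 of 14 and 9 at -0.91, TGF-beta genes 4 of 21 and 15 at -0.55, integrins and receptors 3 of 21 and 14 at -0.81, basement membrane partners 5 of 17 and 12 at -0.98, and YAP/TAZ and SRF targets 11 of 19 and 6 at 0.35. Lama3 was among the partners that were higher there (3.85 ± 0.0788, adjusted p = 3.34e-19). In high glucose against vehicle Lamb3 (-2.58 ± 0.0639, adjusted p = 8.23e-16), Tinagl1 (-2.56 ± 0.139, adjusted p = 1.75e-10) and Lama3 (-1.1 ± 0.0882, adjusted p = 2.78e-08) changed most among basement membrane partners, where 2 of 17 were higher and 5 lower against 12% and 12.2% of all genes, while Nid2 (log2 -0.03) and Ntn4 (0.11) were not called.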

How the data were processed

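RNA was sequenced from 18 libraries in 6 groups of 3. The labels' protocols state that 150 nt reads were cleaned with FASTX-Toolkit 0.0.13, that reads with more than 2 N bases or shorter than 16 nt were removed, and that 4 mismatches were allowed in mapping. HISAT2, DESeq2 and GRCm39 are named in the submitters' processing notes. For the counting tool, annotation release and use of strand, nothing is given in the sources used here. The authors deposited whole read counts per gene, which were tested here, and FPKM values, which the authors scaled by length and depth and which served for levels between genes and for an alternative. Without stated strand, reads of overlapping genes cannot be told apart.

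Genes were kept by edgeR's filter on low counts (minimum count 10, minimum total 15), and 15074 of 29112 remained. Counts were scaled by TMM and fitted over all 6 groups with edgeR's quasi-likelihood test (edgeR 4.0.16, R 4.3.3), which left 12 residual degrees of freedom. P-values were adjusted by Benjamini-Hochberg over all genes tested, at a threshold of 0.05. Differences are log2 fold changes with standard errors. The script was tested on simulated data with the same dispersion for every gene and no outlying library. That test therefore does not cover a library such as mimic replicate 2. Library totals were 33655916 to 37928790 reads, and intervals cover counting error only. Alternatives were no filter, DESeq2 size factors, upper quartile scaling, DESeq2 1.42.0, limma 3.58.1 on log2(FPKM + 1) and log2(FPKM + 0.1), only the groups compared, a replicate block, and leaving out each library. 2 alternatives without mimic replicate 2 were chosen after seeing the data.

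Members and lists were chosen with earlier results of these data known. Named one by one are members called with at least a 2-fold change in a comparison, and Thbs1 in the mimic group. Members called with smaller changes were named after their values were seen. Up to 3 called genes with the largest changes stand for a list, except where a gene with few reads was passed over for another of the 3. The replicate numbers carry no stated link between groups, and deviations of same-numbered libraries correlated at -0.174 to 0.103.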

Additional observations from a re-analysis of the deposited data

Results flagged for a closer look

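The effect of the mimic against its control differed from that of the inhibitor against its control for 5 members, by the test of that difference in one edgeR fit. Mfge8 was at -0.63, Ltbp1 at -0.63, Ccn1 at -0.38 and Fn1 at -0.31 on the log2 scale, so the mimic effect was the more negative. Ccdc80 was at 0.26, with the more positive mimic effect.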

How the results depend on the processing

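The number of members called higher in mimic, 4 as reported, was 7 with upper quartile scaling, 2 with DESeq2, 8 with limma on log2(FPKM + 0.1) and 2 without mimic replicate 2. DESeq2 gave no adjusted p for Thbs1 and Tgfbi there, so it could call neither. Leaving out each library in turn gave 2 to 5 higher and 8 to 9 lower there. The edgeR fit without the filter on low counts gave Thbs1 and Tgfbi in mimic adjusted p-values of 4.87e-204 and 6.1e-36, though each was high in 1 library. In that fit 1 member was higher and 1 lower in inhibitor, 2 were higher in mimic control against high glucose, and 2 were higher for the mimic effect minus the inhibitor effect. That last count, 1 as reported, was 0 with DESeq2 size factors, 2 with limma at either pseudocount, and 0 to 2 leaving out each library. The signs of Thbs1 and Tgfbi in mimic turned without mimic replicate 2, at -0.51 and -0.2, and at -0.49 and -0.19 with only the groups compared, while leaving out each library gave -0.51 to 2.6 for Thbs1 and -0.2 to 4.16 for Tgfbi. For the mimic effect minus the inhibitor effect Thbs1 was at -0.68 without that library, within -0.68 to 2.43 over all leave-outs. The cause of these changes was not tested beyond the library left out.

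With the replicate number as a block Thbs1 in mimic was at 1.79 (adjusted p = 0.0478) and Tgfbi at 2.93 (adjusted p = 0.0206) in edgeR, and no count of members called changed. Correlations of deviations between same-numbered libraries lay between -0.174 and 0.103. They were all positive for inhibitor control with high glucose (0.0479 to 0.103) and all negative for high glucose with vehicle (-0.174 to -0.0638). With 3 libraries per group they cannot show whether same-numbered libraries shared a culture or a batch. Of 3496 values of single members under an alternative, 3357 kept their side of the threshold, 75 fell short of it and 59 newly passed it. Another 5 turned sign and were called as reported or under the alternative. Turns of sign between uncalled values were counted among the 3357. Limma on log2(FPKM + 0.1) moved the median of all genes to -0.12 between mimic control and high glucose and to 0.14 between inhibitor control and mimic control. Depth limits the 8 untested members and Dpt, which had 2 reads in mimic control.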
